A study of Mus musculus with 4 samples.

Results

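Nsg2, Igfbp4, Dapl1, Actn1, Evl, Ift80 and Izumo1r are 7 of the 24421 genes counted in regulatory T cells (Tregs) from the omental tumors and spleens of 2 mice. They were chosen by their level in omental tumor against spleen, as counts scaled by library gene totals, and as genes linked to naive or resting T cells or among the lowest in omental tumor. None of them encodes a transcription factor. That choice used the comparison of the tissues in these same libraries, so the tissue values of the 7 genes are given as a description and without a test. All 7 passed the filter on low counts, which kept 16322 genes.

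The cells came from parabiosis, in which a pair of mice is joined by surgery so that blood cells pass between them. The tumor-bearing mouse carried the CD45.1 allele and received EG7.1.15 tumor cells into the peritoneal cavity. Its tumor-free partner lacked CD45.1. Tissues were taken from the tumor-bearing mouse on day 14 after tumor injection, and the partner's Tregs in them were sorted as live CD45.1- CD45.2+ cells without B220 that were CD4+ and CD25+ and carried the FoxP3(GFP) reporter. The strain given for every library is B6 Foxp3-DTR/GFP, in which the Foxp3 locus drives a diphtheria toxin receptor joined to green fluorescent protein, so all libraries share this allele. The groups were partner-derived Tregs of the omental tumor and partner-derived Tregs of the spleen, each from mouse 3 and mouse 2, with n = 2 libraries each. Gene counts summed to 3764508 and 6660230 in the omental libraries of mouse 3 and mouse 2, and to 13598631 and 9989005 in the spleen libraries. Levels below are CPM, read counts scaled to a common library size with TMM library factors, and differences between tissues are log2 of omental tumor over spleen.

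Resting T cells circulate between blood and lymphoid organs and keep a gene program of homing receptors, survival factors and quiescence regulators, which they lose on activation. Tregs follow a like path: central, or resting, Tregs resemble naive cells, while effector Tregs enter tissues. In single-cell maps of mouse T cells, Igfbp4 and Dapl1 are common markers of naive clusters. Izumo1r encodes folate receptor 4, a surface protein with high levels on Tregs and on anergic CD4 T cells, which on the egg is the receptor for sperm.

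The promoters that RefSeq gives for build GRCm38.p6 are shown for 4 of the 7 genes, so that their start sites can be read beside the values. Each window runs from 250 bases before the start to 50 bases after it, 5′ to 3′ on the gene's strand. Capitals mark exact matches, on either strand, to 6 short words that occur in binding motifs of factors of resting and activated T cells. The words were CTTTGA for TCF/LEF, TAAACA for FOXO, CCACCC for KLF, TGTGGT for RUNX, CAGCTG for E proteins and TGACTCA for AP-1 or BACH2. CAGCTG is its own reverse complement, and no matches overlap in the windows shown. The Nsg2 window lies at chr11:32000169-32000468 on the plus strand, Dapl1 at chr2:59484403-59484702 on the plus strand, Evl at chr12:108554470-108554769 on the plus strand and Izumo1r at chr9:14903718-14904017 on the minus strand.
Nsg2: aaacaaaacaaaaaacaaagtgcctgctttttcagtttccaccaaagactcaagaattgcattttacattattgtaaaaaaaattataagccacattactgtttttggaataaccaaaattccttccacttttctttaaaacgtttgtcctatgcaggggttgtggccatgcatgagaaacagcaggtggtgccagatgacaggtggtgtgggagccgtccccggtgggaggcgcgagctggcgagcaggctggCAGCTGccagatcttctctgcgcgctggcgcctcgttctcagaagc
Dapl1: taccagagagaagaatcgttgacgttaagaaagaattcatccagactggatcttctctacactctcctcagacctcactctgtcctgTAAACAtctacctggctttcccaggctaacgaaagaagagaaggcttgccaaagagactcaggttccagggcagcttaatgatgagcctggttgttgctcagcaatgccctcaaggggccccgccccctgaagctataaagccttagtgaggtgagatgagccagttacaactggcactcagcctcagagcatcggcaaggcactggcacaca
Evl: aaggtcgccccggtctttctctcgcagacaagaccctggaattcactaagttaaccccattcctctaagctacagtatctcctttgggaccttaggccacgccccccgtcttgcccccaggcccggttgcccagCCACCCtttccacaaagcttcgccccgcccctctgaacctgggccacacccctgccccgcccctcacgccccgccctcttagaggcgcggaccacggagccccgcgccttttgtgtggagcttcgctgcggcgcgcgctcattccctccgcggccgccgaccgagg
Izumo1r: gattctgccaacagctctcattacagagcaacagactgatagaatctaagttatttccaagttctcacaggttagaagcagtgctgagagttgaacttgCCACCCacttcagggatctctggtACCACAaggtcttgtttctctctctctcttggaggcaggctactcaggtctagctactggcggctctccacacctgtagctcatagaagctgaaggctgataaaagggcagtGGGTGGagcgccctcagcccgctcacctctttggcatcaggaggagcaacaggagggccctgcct

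The Nsg2 window held the E protein word at position 5 after the start, and the Dapl1 window held the FOXO word at position -163. In Evl the KLF word stood at position -116. Izumo1r held the KLF word at position -151 and, on the other strand, at position -15, and the RUNX word on the other strand at position -127. The windows of Igfbp4 and Actn1 held none of the 6 words. A second window of Nsg2 held the KLF word, and a second window of Evl held the KLF and E protein words. Over the 32851 RefSeq promoters of the same length, the FOXO word occurred in 13.4%, the KLF word in 31.5%, the RUNX word in 16.8%, the E protein word in 16.3%, the TCF/LEF word in 16.0% and the AP-1 word in 5.20%. These are matches of letters only and say nothing of binding. Ift80 had no window in the table.

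All 7 genes were lower in both omental libraries than in either spleen library. Of the 16322 genes tested, 25.4% had both omental libraries below both spleen libraries, and because the tissue contrast chose the 7 genes their count is not read against that share. Their summed level was 218 and 195 CPM in the omental libraries of mouse 3 and mouse 2, against 1491 and 1333 CPM in the spleen libraries. The median log2 fold change of the 7 was -3.67, beside 0.13 over all tested genes. A log2 fold change below 0 was found for 46.1% of all tested genes. The values spanned -5.01 for Nsg2 to -1.78 for Dapl1, so the sizes were unequal. Nsg2, Igfbp4, Evl and Ift80 ranked 4, 7, 13 and 15 from the lowest fold change. Actn1, Izumo1r and Dapl1 ranked 159, 390 and 574. In bulk libraries such as these, fewer cells that express a gene and less RNA per cell cannot be told apart.

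**Figure D1:**
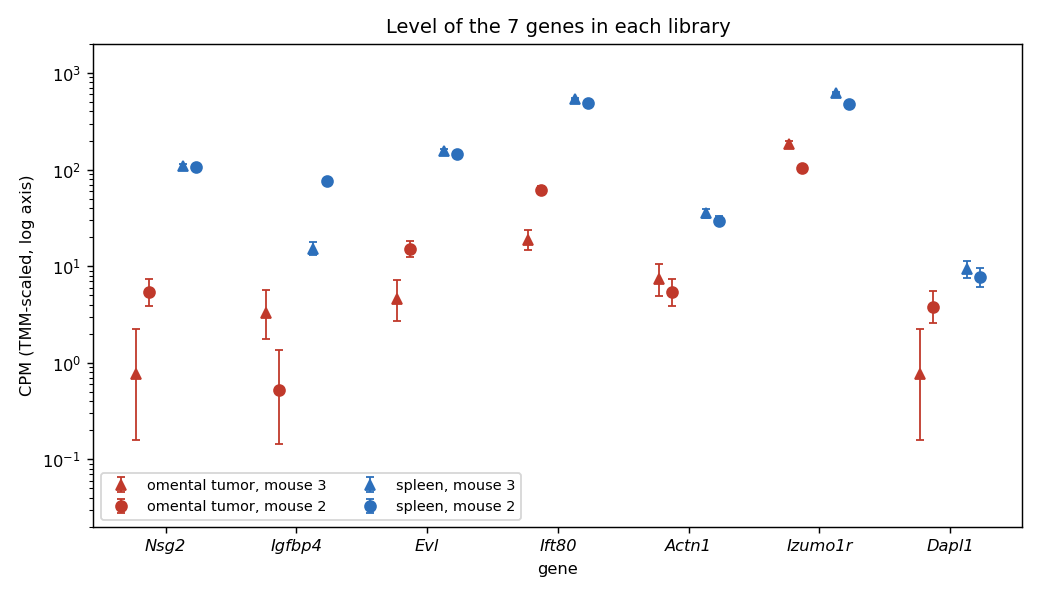
Level of each of the 7 genes in CPM on a log axis, with 1 point per library, omental tumor in red left of spleen in blue, triangles for mouse 3 and circles for mouse 2. Bars are exact 95% intervals that cover counting error only. In every gene both red points lie below both blue points, and Igfbp4 has the widest gap between its spleen points, at 15.2 CPM in mouse 3 and 75.8 CPM in mouse 2.

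Nsg2 encodes a small membrane protein of endosomes, known in neurons for receptor trafficking. It lies at chr11:32000463-32059202 on the plus strand of GRCm38 and shared no stretch of 50 bases with another annotated transcript. It had 3 and 41 counts in the omental libraries of mouse 3 and mouse 2, or 0.760 and 5.38 CPM, against 1184 and 1089 counts in spleen, or 108 and 107 CPM. The spleen libraries had nearly the same level, while the omental libraries differed 7.09-fold, with mouse 2 higher. The log2 ratio of omental tumor to spleen was -7.16 in mouse 3 (95% exact interval -9.44 to -5.61) and -4.31 in mouse 2 (-4.79 to -3.86). These intervals cover counting error only, and the value in mouse 3 rests on 3 omental counts. As a linear fold, Nsg2 was 143-fold lower in omental tumor in mouse 3 (48.7 to 693) and 19.8-fold lower in mouse 2 (14.5 to 27.8). Its relatives in the same trafficking family were hardly detected: Nsg1 had 4 and 17 counts in omental tumor against 8 and 3 in spleen, and Caly had 1 and 0 against 0 and 2.

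Igfbp4 encodes a secreted protein that binds insulin-like growth factors. Its locus is chr11:99041244-99054392 on the plus strand, and 1.72% of its 50-base stretches occur in other annotated transcripts. It had 13 and 4 counts in the omental libraries of mouse 3 and mouse 2, or 3.29 and 0.525 CPM, against 166 and 775 counts in spleen, or 15.2 and 75.8 CPM. Igfbp4 was the gene of the 7 on which the mice differed most in spleen, by 4.99-fold with mouse 2 higher, and in omental tumor they differed 6.27-fold with mouse 3 higher. The tissue ratio was therefore far apart between mice, at log2 -2.21 in mouse 3 (95% exact interval -3.15 to -1.39) and -7.17 in mouse 2 (-9.05 to -5.81). With 1 library per tissue and mouse, this difference between mice has no replicate and was not tested.

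Dapl1 encodes a death-associated-protein-like factor. Its log2 fold change was -1.78, beside -1.96 for Izumo1r. The order of these genes turned with DESeq2 (-1.86 and -1.79), RLE (-1.80 and -1.79) and the mouse as a block (-2.09 and -2.00). Scaling by counts of T lineage genes (-1.54 and -1.22) or of Foxp3 (-1.70 and -1.38) turned the order as well. So did leaving out the omental library of mouse 2 (-3.48 and -1.61) or the spleen library of mouse 3 (-1.64 and -1.42). Dapl1 lies at chr2:59484653-59505020 on the plus strand, with no shared stretch of 50 bases. Counts were 3 and 29 in the omental libraries of mouse 3 and mouse 2, against 102 and 79 in spleen, which is 0.760 and 3.81 CPM against 9.33 and 7.73 CPM. The omental level was closer to spleen in mouse 2, and in mouse 3 it rested on 3 counts. The log2 ratio was -3.62 in mouse 3 (95% exact interval -5.92 to -2.03) and -1.02 in mouse 2 (-1.69 to -0.39). Dap, its relative and a negative regulator of autophagy, had 56.7 and 24.5 CPM in omental tumor against 35.2 and 31.5 CPM in spleen, so its groups overlapped (log2 fold change 0.28, adjusted p = 0.902, edgeR quasi-likelihood test).

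Evl and Actn1 encode proteins of the actin cytoskeleton. Evl, an Ena/VASP protein that extends actin filaments, had 18 and 115 counts in the omental libraries of mouse 3 and mouse 2, or 4.56 and 15.1 CPM. Its spleen counts were 1703 and 1467, or 156 and 144 CPM. The spleen libraries lay close together, and the omental library of mouse 3 was 3.31-fold below that of mouse 2. The log2 ratio of Evl was -5.10 in mouse 3 (95% exact interval -5.85 to -4.43) and -3.25 in mouse 2 (-3.54 to -2.97). Evl lies at chr12:108554720-108688516 on the plus strand and overlaps 278 exon bases of Degs2 on the other strand. Of the 50-base stretches of Evl, 7.52% also occur in Degs2, and without strand the reads there could come from either gene. Degs2 itself had 4.56 and 7.22 CPM in omental tumor against 7.05 and 11.2 CPM in spleen.

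Actn1, a non-muscle alpha-actinin that cross-links actin and ties it to integrins, had tissue ratios that lay close together in the mice. It had 29 and 41 counts in omental tumor in mouse 3 and mouse 2, or 7.34 and 5.38 CPM, against 385 and 303 in spleen, or 35.2 and 29.7 CPM. Its log2 ratio was -2.26 in mouse 3 (95% exact interval -2.86 to -1.72) and -2.46 in mouse 2 (-2.97 to -1.99), so the counting intervals of the mice overlapped. Actn1 lies at chr12:80167547-80260371 on the minus strand, and 6.79% of its 50-base stretches recur elsewhere, mostly in an overlapping antisense transcript.

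Ift80 encodes a subunit of the intraflagellar transport complex that carries cargo in cilia. It lies at chr3:68892499-69004570 on the minus strand. It was among the best counted of the 7 genes, with 74 and 472 counts in the omental libraries of mouse 3 and mouse 2, or 18.7 and 62.0 CPM. In spleen it had 5945 and 4983 counts, or 544 and 488 CPM. Its omental level was 3.31-fold lower in mouse 3 than in mouse 2, the same step as in Evl. The log2 ratio was -4.86 in mouse 3 (95% exact interval -5.21 to -4.53) and -2.98 in mouse 2 (-3.12 to -2.84).

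Izumo1r lies at chr9:14885814-14903949 on the minus strand and shares no stretch of 50 bases with another annotated transcript. It had 720 and 783 counts in the omental libraries of mouse 3 and mouse 2, or 182 and 103 CPM, against 6812 and 4928 in spleen, or 623 and 482 CPM. Unlike Nsg2, Dapl1, Evl and Ift80, it was higher in mouse 3 than in mouse 2 in both tissues. The log2 ratio was -1.77 in mouse 3 (95% exact interval -1.89 to -1.66) and -2.23 in mouse 2 (-2.34 to -2.12). Set against Foxp3, the factor that defines Tregs and the basis of the sort, there were 2.16 and 1.26 Izumo1r counts per Foxp3 count in omental tumor and 4.31 and 4.27 in spleen. Its structural relative Folr2, a folate receptor of macrophages, had 7.60 and 8.14 CPM in omental tumor against 0.275 and 3.03 CPM in spleen, and did not pass the threshold (log2 fold change 2.26, adjusted p = 0.446, edgeR). Izumo4, related to its sperm partner, had 11.6 and 15.8 CPM against 48.7 and 47.5 CPM and did not pass either (log2 fold change -1.80, adjusted p = 0.375, edgeR). Folr1, Izumo1, Izumo2 and Izumo3 were too low to be tested.

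**Figure D2:**
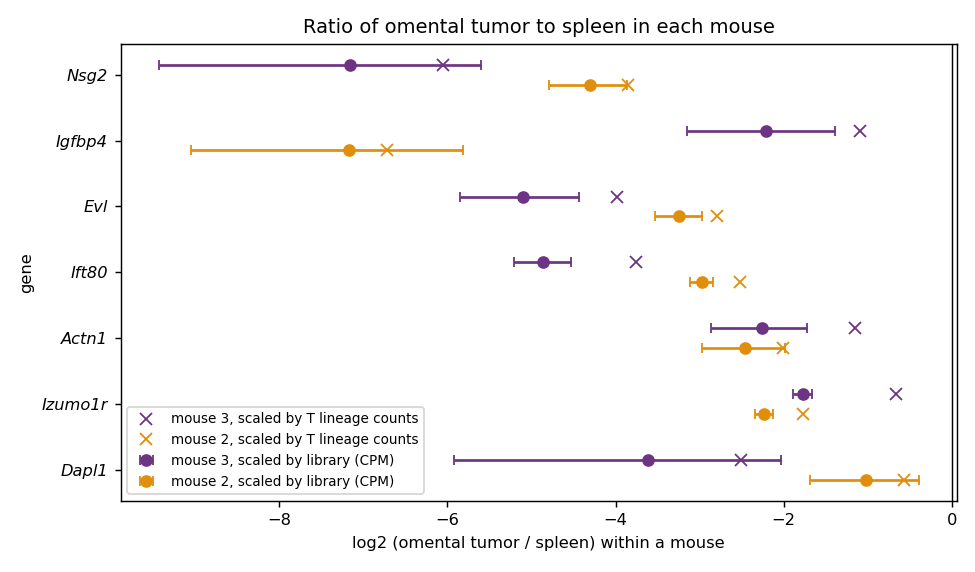
The log2 ratio of omental tumor to spleen within each mouse for the 7 genes, with dots for CPM and their exact 95% counting intervals, and crosses for counts set against the summed counts of 12 T lineage genes. All dots and crosses lie below 0, and mouse 3 is the lower of the mice in Nsg2, Dapl1, Evl and Ift80, but the higher in Igfbp4, Actn1 and Izumo1r.

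Compared with one another, levels per kilobase of exon put Izumo1r first in all 4 libraries, with 78.6 and 44.3 CPM per kb in omental tumor and 269 and 208 CPM per kb in spleen. In spleen, Evl and Ift80 followed in both mice, with 53.0 and 48.8 CPM per kb for Evl and 43.8 and 39.2 CPM per kb for Ift80, then Nsg2 with 26.1 and 25.6 CPM per kb. Dapl1 had 13.7 and 11.4 CPM per kb in spleen and Actn1 6.37 and 5.36, while Igfbp4, with 3.44 and 17.2, lay below Actn1 in mouse 3 and above Dapl1 in mouse 2. In omental tumor the genes behind Izumo1r changed places between mice. Dapl1, Evl and Ift80 lay within 4.99 to 5.61 CPM per kb in mouse 2, whereas in mouse 3 Evl, Ift80, Actn1 and Dapl1 lay within 1.12 to 1.55 CPM per kb. The lowest was Nsg2 in mouse 3, at 0.183 CPM per kb, and Igfbp4 in mouse 2, at 0.119 CPM per kb. Lengths are unions of all annotated exons, so a gene with long unused exons reads too low on this scale.

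The mice give the one contrast that did not choose the genes. With the tissue in the model, the log2 difference of mouse 3 minus mouse 2 was -1.08 for Nsg2 (SE 0.910, adjusted p = 0.620), -0.77 for Ift80 (SE 0.876, adjusted p = 0.743) and -0.75 for both Evl (SE 0.864, adjusted p = 0.744) and Dapl1 (SE 0.784, adjusted p = 0.714) in edgeR's quasi-likelihood test. It was -0.32 for Igfbp4 (SE 1.06, adjusted p = 0.928), 0.34 for Actn1 (SE 0.726, adjusted p = 0.882) and 0.60 for Izumo1r (SE 0.821, adjusted p = 0.793) in the same test. None of the 7 was called, beside 0.582% of all tested genes (0.00613% higher and 0.576% lower in mouse 3), and none had an unadjusted p under 0.05 or was called by DESeq2 or limma-voom. The 95% intervals were wide, from -2.90 to 0.74 for Nsg2 and from -1.04 to 2.24 for Izumo1r, so a difference between mice of the size seen here was not detectable. Of the 95 genes called, 94 were lower in mouse 3, and the median over all tested genes was -0.45. The libraries of the mice also differed in the share of reads outside annotated features. It was 27.3% in omental tumor and 24.8% in spleen for mouse 3, against 48.9% and 44.2% for mouse 2. Reads without a unique alignment made up 49.9% and 28.0% in mouse 3, and 33.5% and 30.2% in mouse 2. The part of these shares in the differences between mice was not tested. Igfbp4 changed sign in this contrast with DESeq2, at 0.22, and with edgeR's RLE scaling, at 0.043.

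Of 28 tested naive and resting T cell genes, none of them a member or a transcription factor, 6 were called lower and 0 higher by edgeR, beside 1.43% of all tested genes called, 0.263% lower and 1.16% higher. At an unadjusted p under 0.05 there were 20 lower and 0 higher, beside 1673 of all 16322 tested genes in either direction. DESeq2 called 12 lower and 0 higher, and limma-voom 10 lower and 0 higher. Over all tested genes DESeq2 called 118 lower and 240 higher, and limma-voom 56 lower and 107 higher. The median log2 fold change of the list was -2.24, and it lay between -2.24 and -1.43 when libraries were scaled by TMM, RLE, upper quartiles, gene totals or T lineage genes. In 25 of the 28 genes both omental libraries lay below both spleen libraries, beside 25.4% of all tested genes. Sesn3, a stress-response protein, had a log2 fold change of 0.31 (adjusted p = 0.912, edgeR), and Ramp1, a receptor subunit, had one of -0.03 (adjusted p = 0.990, edgeR); both were named after their values were seen. The list was drawn up with results of these samples known, so it is not independent evidence of its direction.

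Gpr83, an orphan receptor of Tregs, had 2.53 and 12.6 CPM in the omental libraries of mouse 3 and mouse 2, against 264 and 238 CPM in spleen, and fell (log2 fold change -5.00, SE 0.888, adjusted p = 8.26e-06, edgeR). Bcl2, a survival factor, had 18.5 and 30.5 CPM against 228 and 306 CPM (log2 fold change -3.44, SE 0.824, adjusted p = 0.00414). Ly6c1, a surface antigen of naive and memory T cells, had 11.9 and 17.6 CPM against 183 and 149 CPM (log2 fold change -3.48, SE 0.814, adjusted p = 0.00288). In all 3 genes the groups were well apart. S1pr1, the receptor that lets lymphocytes leave lymphoid organs, had 38.7 and 153 CPM against 1078 and 785 CPM (log2 fold change -3.28, SE 0.930, adjusted p = 0.0337). Als2cl and the phosphoinositide 3-kinase inhibitor Pik3ip1 also fell, by 2.94 and 3.06 on the log2 scale (SE 0.801 and 0.818, adjusted p = 0.0223 and 0.0179), although Pik3ip1 did not pass with the mouse as a block (adjusted p = 0.101). With that block Il6ra, a cytokine receptor chain, passed in its place, with 4.56 and 3.15 CPM in omental tumor against 17.0 and 44.6 CPM in spleen (log2 fold change -3.02, adjusted p = 0.0633 without the block and 0.0486 with it). Ablim1, an abundant actin-binding protein of the list, had 119 and 599 CPM in omental tumor against 2096 and 1496 CPM in spleen and did not pass (log2 fold change -2.32, adjusted p = 0.367). Gpr83 was called without any 1 library (adjusted p 0.00295 to 0.0297), whereas Bcl2, Ly6c1, S1pr1, Als2cl and Pik3ip1 were called in 0 of these 4 fits. Their adjusted p was then 0.0651 to 0.253 for Bcl2, 0.0658 to 0.173 for Ly6c1, 0.0537 to 0.745 for S1pr1, 0.0742 to 0.537 for Als2cl and 0.0765 to 0.548 for Pik3ip1. S1pr1 also did not pass with RLE (0.0883) or upper-quartile scaling (0.0922), Als2cl with upper quartiles (0.0875), and Pik3ip1 with limma-voom (0.0894), RLE (0.0552) or upper quartiles (0.110). With gene totals in edgeR, Gpr83 alone of these genes passed (0.0409), with Bcl2 at 0.0997 and Ly6c1 at 0.0933. At a minimum count of 50 and with no filter none of these genes passed in edgeR, with Gpr83 at 0.0736 and 0.204. Over all tested genes, 4 and 0 were called in those fits.

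Among 8 transcription factors of resting T cells, edgeR called Id3 lower and none higher, beside 0.263% and 1.16% of all tested genes. At an unadjusted p under 0.05 there were 4 lower and 0 higher; DESeq2 called Id3, Foxp1 and Lef1 lower, and limma-voom Id3 and Foxp1. All 8 had both omental libraries below both spleen libraries, beside 25.4% of all tested genes. This list too was drawn up with results of these samples known, so it is not independent evidence of its direction. Id3, an inhibitor of E proteins, had 3.04 and 3.94 CPM in omental tumor against 150 and 134 CPM in spleen (log2 fold change -5.32, SE 0.907, adjusted p = 2.31e-06). Of 16 effector Treg genes, 0 were called in either direction by edgeR, DESeq2 or limma-voom. At an unadjusted p under 0.05 there were 1 lower and 2 higher, beside 1673 of all 16322 tested genes in either direction. Their median log2 fold change was 0.94, between 0.94 and 1.82 over the same 5 scalings. In 8 of them both omental libraries lay above both spleen libraries, beside 16.4% of all tested genes. In 1 of them, Nrp1, both lay below, beside 25.4% of all tested genes. A log2 fold change below 0 was found for 2 of the 16, Nrp1 (-1.94, adjusted p = 0.349, edgeR) and Itgae (-1.15, adjusted p = 0.645, edgeR). Tnfrsf9, a costimulatory receptor, had 1333 and 1877 CPM in omental tumor against 649 and 388 CPM in spleen (log2 fold change 1.63, adjusted p = 0.585).

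**Figure D3:**
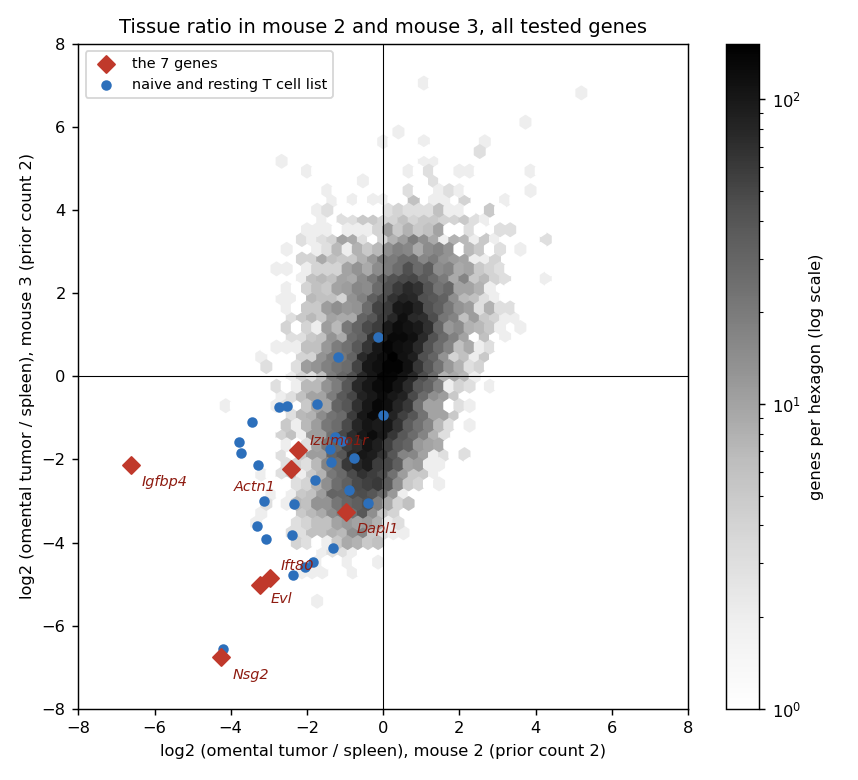
The log2 ratio of omental tumor to spleen in mouse 3 against that in mouse 2 for all 16322 tested genes (grey hexagons, darker with more genes), with the 7 genes as red diamonds and 28 other naive and resting T cell genes as blue dots. A prior count of 2 was added, which draws low genes toward 0. The 7 genes lie in the lower left, and Igfbp4 stands apart along the axis of mouse 2.

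The other subunits of the complex of Ift80 had a median near that of all genes. Of 22 tested subunits of intraflagellar transport other than Ift80, edgeR, DESeq2 and limma-voom called 0, and 1 was lower at an unadjusted p under 0.05. As edgeR called 1.43% of all tested genes, 0 calls in a list of this size do not set it apart. The median log2 fold change of the 22 was 0.12, beside 0.13 for all tested genes and -3.67 for Ift80. Per kilobase, 0 of 23 subunits were above Ift80 in either spleen library, where the highest, Ift52, had 43.5 and 28.7 CPM per kb. In omental tumor, 12 subunits were above Ift80 in mouse 3 and 8 in mouse 2. Ift88 had 2.78 and 6.04 CPM in omental tumor against 4.85 and 6.56 CPM in spleen (log2 fold change -0.32, adjusted p = 0.913). Ift172 had 4.81 and 14.6 CPM against 18.6 and 15.8 CPM (log2 fold change -0.79, adjusted p = 0.760).

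The start of Ift80 lies 167 bases from that of Smc4, a condensin subunit transcribed the other way. Smc4 had 374 and 232 CPM in omental tumor against 808 and 806 CPM in spleen and did not pass (log2 fold change -1.41, adjusted p = 0.595, edgeR). Trim59, next to Smc4, had 44.6 and 19.3 CPM against 36.6 and 45.2 CPM, so its groups overlapped (log2 fold change -0.37, adjusted p = 0.871, edgeR).

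The cytoskeletal partners of Actn1 and Evl had negative medians but no calls. Over all tested genes edgeR called 0.263% lower and 1.16% higher, so 0 calls in lists of this size do not set them apart. An unadjusted p under 0.05 was found for 1673 of the 16322 tested genes. Among 17 actinins and integrin adaptors the median log2 fold change was -1.16, between -1.16 and -0.39 over the 5 scalings. edgeR, DESeq2 and limma-voom called 0 of them, with 3 lower and 1 higher at an unadjusted p under 0.05. Both omental libraries lay below both spleen libraries in 10 of the 17 and above in 2, beside 25.4% and 16.4% of all tested genes. Actn4, the other non-muscle actinin, had 59.2 and 267 CPM in omental tumor against 212 and 387 CPM in spleen (log2 fold change -0.87, adjusted p = 0.714), and its groups overlapped. Flna, which cross-links actin, had 130 and 1194 CPM against 2265 and 1757 CPM (log2 fold change -1.60, adjusted p = 0.614). In Flna, as in Evl, the omental library of mouse 3 was the lowest.

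Among 14 Ena/VASP proteins and actin regulators the median was -1.09, between -1.09 and -0.37 over the 5 scalings. The same 3 tools called 0 of the 14, with 2 lower and 0 higher at an unadjusted p under 0.05. Both omental libraries lay below both spleen libraries in 11 of the 14 and above in 0, beside 25.4% and 16.4% of all tested genes. Vasp, a close relative of Evl, had 57.2 and 147 CPM in omental tumor against 331 and 207 CPM in spleen (log2 fold change -1.40, adjusted p = 0.535). Enah, the third member of that family, had 6.33 and 11.0 CPM against 0.732 and 6.36 CPM (log2 fold change 1.31, adjusted p = 0.671). Per kilobase, Vasp at 126 and 79.2 CPM per kb exceeded Evl at 53.0 and 48.8 CPM per kb in spleen.

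In the insulin-like growth factor axis, 11 genes were tested, and edgeR called 1 higher and 0 lower, beside 1.16% and 0.263% of all tested genes. DESeq2 called 1 higher, Igfbp7, and 1 lower, Igf2r, while limma-voom called Igf2r lower and 0 higher. The gene called, Igfbp7, had 44.1 and 1.18 CPM in the omental libraries of mouse 3 and mouse 2, against 0.0915 and 0.294 CPM in spleen (log2 fold change 6.76, SE 1.27, adjusted p = 3.82e-05), so its omental level came mainly from mouse 3. It did not pass in limma-voom (adjusted p = 0.308) and was too low to be tested without that library. Igf2r, which clears insulin-like growth factor 2, had 22.0 and 53.4 CPM in omental tumor against 245 and 238 CPM in spleen (log2 fold change -2.67, adjusted p = 0.0521 in edgeR, 0.00715 in DESeq2 and 0.0290 in limma-voom). Igf1r, the signalling receptor, had 14.2 and 18.5 CPM against 21.1 and 25.3 CPM (log2 fold change -0.50, adjusted p = 0.834). Pappa, the protease that cleaves Igfbp4, had 3.80 and 16.4 CPM against 5.86 and 12.8 CPM (log2 fold change 0.15, adjusted p = 0.956).

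**Figure D4:**
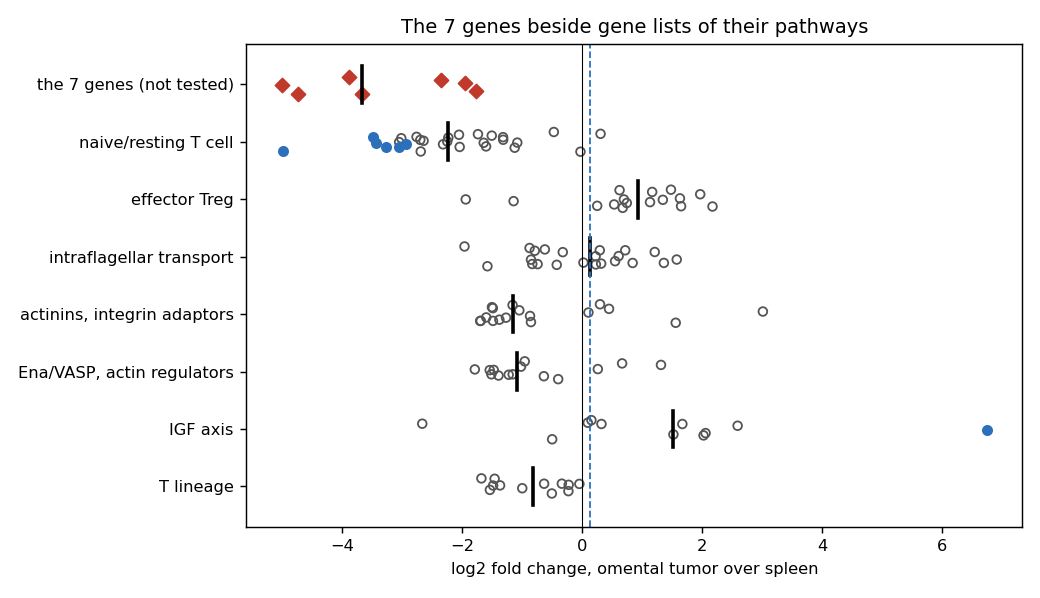
The log2 fold change of omental tumor over spleen for the 7 genes (red diamonds, top, not tested) and for genes of 7 lists, with filled blue dots for genes at an adjusted p under 0.05 in edgeR and open circles for the rest. Thick bars are medians and the dashed line is the median of all tested genes, 0.13. The median of the 7 genes is -3.67 and that of the naive and resting list -2.24, while that of the intraflagellar transport subunits is 0.12.

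Foxp3, the gene of the sort, had 84.3 and 81.4 CPM in omental tumor against 144 and 113 CPM in spleen. Over all tested genes, the share beside the counts that follow, edgeR called 0.263% lower and 1.16% higher. An unadjusted p under 0.05 was found for 1673 of the 16322. Of 10 Treg identity genes, Gpr83 was called lower by edgeR, DESeq2 and limma-voom and 0 higher, with 3 lower and 0 higher at an unadjusted p under 0.05. Their median log2 fold change was -0.74, between -0.74 and -0.02 over the 5 scalings. Of 12 T lineage genes edgeR, DESeq2 and limma-voom called 0, with 0 at an unadjusted p under 0.05, and their sum was 4833 and 4782 CPM in omental tumor against 10424 and 6564 CPM in spleen. The 9 neutrophil markers counted summed to 1469 and 143 CPM in omental tumor against 68.1 and 95.0 CPM in spleen. Of 7 tested, edgeR called 4 higher (S100a8, S100a9, Csf3r and Retnlg), but 0 with the mouse as a block. Without the block DESeq2 called Csf3r, Retnlg and Mmp9, and limma-voom called Csf3r. The median log2 ratio of the 7 was 5.40 in mouse 3 and 0.354 in mouse 2. In mouse 2, S100a8 and S100a9 were lower in omental tumor, at 0.131 and 1.58 CPM against 6.26 and 9.10 CPM in spleen. Csf3r and Retnlg were higher there, at 28.0 and 3.54 CPM against 21.8 and 2.94 CPM. Ngp alone of the 7 had a log2 fold change below 0 (-1.44, adjusted p = 0.684, edgeR). The 12 macrophage and monocyte markers summed to 1082 and 1227 CPM against 843 and 383 CPM, with 2 called higher, Lyz2 and Cd14. The log2 fold change was above 0 for 7 of the 12 and below 0 for 5, Csf1r, Adgre1, Mertk, C1qa and C1qb. Within these sums Ccr2 alone had 207 and 739 CPM in omental tumor against 464 and 185 CPM in spleen. Cd14 had 273 and 23.8 CPM against 4.85 and 2.64 CPM, so its omental level came mainly from mouse 3. Lyz2 had 297 and 250 CPM against 61.8 and 6.85 CPM. The 10 fibroblast and mesothelial markers summed to 15.7 and 178 CPM against 6.95 and 14.1 CPM, with 1 of 5 tested, Col3a1, called higher. Col3a1 had 2.03 and 91.2 CPM in omental tumor against 1.83 and 2.64 CPM in spleen, and it did not pass with the mouse as a block (adjusted p = 0.177), in limma-voom (0.142) or without the omental library of mouse 2 (0.994). Lum and Wt1 were at 0 in the omental and spleen libraries of mouse 3, and Krt19 and the dendritic cell marker Flt3 were at 0 in its spleen library. Of B cell, dendritic cell, CD8 T and NK cell and immature T cell markers edgeR, DESeq2 and limma-voom called 0, with 1 B cell and 2 immature T cell genes higher at an unadjusted p under 0.05. Their sums were 28.1 and 89.0, 44.3 and 66.7, 23.8 and 42.1, and 43.3 and 37.3 CPM in omental tumor. In spleen these sums were 50.5 and 52.9, 15.5 and 30.4, 43.0 and 42.5, and 6.59 and 17.2 CPM. The part of these other cells in the levels of the 7 genes was not tested.

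Set against the T lineage genes in place of the library, all 7 genes were still lower in omental tumor in both mice. The median log2 ratio was then -2.51 in mouse 3 and -2.52 in mouse 2, beside -3.62 and -2.98 by CPM. Nsg2 had 0.157 and 1.13 counts per 1000 T lineage counts in omental tumor, against 10.4 and 16.2 in spleen. Ift80 had 3.88 and 13.0 per 1000, against 52.2 and 74.3. Izumo1r in mouse 3 and Dapl1 in mouse 2 came closest to spleen on this scale, with log2 ratios of -0.66 and -0.57. Scaled by Foxp3, all 7 were again lower in both mice.

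Of 5938 tested genes with a mean of at least 32 CPM in spleen, the 5 most like the mean pattern of the 7 were Capn3, Bcl2, Ly6c1, Gm11346 and Mturn. Likeness was the root mean square distance, over the 4 libraries, between log2 levels centred on each gene's mean. It was 0.0835 for Capn3, 0.0985 for Bcl2, 0.163 for Ly6c1, 0.211 for Gm11346 and 0.310 for Mturn. Of the 7 genes, Ift80 and Evl lay nearest to their common mean, at 0.452 and 0.501, and Nsg2 and Igfbp4 farthest, at 1.21 and 1.33. Capn3, a calcium-dependent protease, had 3.54 and 6.56 CPM in omental tumor against 51.9 and 56.0 CPM in spleen. The mean pattern holds the tissue difference that chose the 7 genes, and the genes searched were kept by their spleen level alone. That the 5 nearest genes were lower in omental tumor thus follows from the search and is not a separate result. Dapl1 itself, with a spleen mean of 8.53 CPM, lies below the level asked of the genes searched.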

How the data were processed

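The authors' tools were Trim Galore, TopHat2, SAMtools and HTSeq, on build mm10, per the submitters' processing notes; their versions, the annotation and the use of strand: not given in the sources used here. Per the labels' protocols, SMART-seq v4 and Nextera XT were used, which do not mark strand. Each library has 1 deposited file of raw gene counts. HTSeq's summary entries, which name no gene, were left out; genes held 22.2% and 17.1% of entries in the omental files of mouse 3 and mouse 2 and 46.0% and 24.9% in the spleen files.

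Counts were analysed with edgeR 4.0.16 in R 4.3.3. filterByExpr at a minimum count of 10 kept 16322 genes. TMM factors were 1.05 and 1.15 (omental tumor, mouse 3 and mouse 2) and 0.804 and 1.03 (spleen). Omental tumor was compared with spleen over all 4 libraries by the quasi-likelihood test (glmQLFit without its legacy form), with Benjamini-Hochberg adjustment at 0.05 over all tested genes and tissue as the only term. The prior degrees of freedom were infinite there, so p-values do not measure a gene's own spread. Mouse 3 was compared with mouse 2 with tissue as a term, which leaves 1 residual degree of freedom. Same-numbered libraries come from the same animal per the labels (correlation of deviations 0.234), so the fit with mouse as a block is given where it changes the call of a listed gene. Alternatives used DESeq2 1.42.0 and limma-voom 3.58.1, other scalings and filters, and leaving out each library. The test code was checked on simulated data. Intervals of ratios are exact (Clopper-Pearson) and cover counting error only. Gene positions, lengths and shared 50-base stretches are from GENCODE M21 (GRCm38), promoters from RefSeq GRCm38.p6, which matched 6 of the 7 genes.

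The 7 genes, the lists, the markers and the tests were chosen with earlier results of these data known. Other genes were named by a rule: of each list those called, at most 6 by smallest p, and the 2 most abundant, plus single genes with a role beside one of the 7. Degs2, Il6ra, Sesn3 and Ramp1 were added after their values were seen. A gene that this rule names is not reported here. Scalings by T lineage genes and by Foxp3, and the legacy form of glmQLFit, were chosen after seeing the data.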

Additional observations from a re-analysis of the deposited data

How the results depend on the processing

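The log2 fold change of each of the 7 genes stayed negative in all 15 alternatives run, between -7.13 and -4.40 for Nsg2, -6.48 and -3.11 for Igfbp4, -5.05 and -3.39 for Evl, -4.80 and -3.14 for Ift80, -2.68 and -1.58 for Actn1, -2.52 and -1.22 for Izumo1r and -3.48 and -1.25 for Dapl1. The median of the 7 was -3.67, and lay between -3.79 and -3.11 when 1 library was left out. Scaled by the T lineage genes it was -3.14. For the scalings by T lineage genes and by Foxp3, each gene's value was the mean of its log2 ratios in the mice. Those values are not edgeR fits, so they differ from -3.67 in method as well as in scaling. Scaling moved the median of all tested genes, from 0.13 with TMM to 0.25 with RLE, 0.40 with gene totals, 0.62 with upper quartiles and 0.86 with T lineage genes. The 233 calls between tissues (190 higher, 43 lower) became 358 with DESeq2 (240 and 118, with 2848 genes given no adjusted p), 28 with gene totals (26 and 2), 4 at a minimum count of 50 (4 and 0) and 0 with no filter, where 1903 genes had an unadjusted p under 0.05. RLE gave 232 higher and 29 lower, upper quartiles 210 and 13, limma-voom 107 and 56, and the legacy form 178 and 37. Without 1 library there were 60 to 273 calls: 273 without omental mouse 2, 77 without omental mouse 3, 60 without spleen mouse 2 and 97 without spleen mouse 3, where the lone library of a tissue is assumed to vary like the others. With the mouse as a block (paired fit) there were 261 calls, and 6 of the naive and resting list, with Il6ra (adjusted p = 0.0486) in and Pik3ip1 (0.101) out. That list's 6 calls became 12 with DESeq2, 10 with limma-voom, 3 with upper quartiles, 1 with gene totals, 0 at a minimum count of 50, 0 with no filter (20 at an unadjusted p under 0.05 there and 16 at a minimum count of 50), and 1 to 2 without 1 library. The 95 calls between mice became 7 with DESeq2, 8 with limma-voom, 0 with RLE (1601 at an unadjusted p under 0.05), 2 with gene totals, 3 with upper quartiles, 42 at a minimum count of 50, 0 with no filter (2924 at an unadjusted p under 0.05) and 220 with the legacy form; leaving out a library was not run there, since no residual degrees of freedom remain. Igfbp4 in mouse 3 minus mouse 2 turned to 0.22 with DESeq2 and 0.043 with RLE. The cause of these changes was not tested. Depth limits Nsg2 and Dapl1 in omental mouse 3, at 3 counts each, and Igfbp4 in omental mouse 2, at 4.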
